A study of Mus musculus with 2 samples.

Results

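Control regulatory T (Treg) cells were divided by whether their own Foxp3 transcript had been captured. Of 3634 control cells, 956 held 1 or more Foxp3 UMIs (unique tags, each standing for a single RNA molecule that was captured) and are called Foxp3+ here, and 2678 held 0 and are called Foxp3-. Both classes came from 1 library, within a series of 7024 cells. The class was chosen by the Foxp3 count itself, so Foxp3 values of the classes are a description, and the results are those of all other genes.

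The control library pooled cells of 5 mice of genotype Foxp3DTR-GFP/yCd4creERT2, in which Foxp3 carries a reporter and was never switched off. The library used for comparison pooled 4 mice of genotype Foxp3LSL/yCd4creERT2, in which a stop cassette silences Foxp3 until Cre recombinase removes it, and its cells are called rescued cells. All mice were C57BL/6 males labelled as 7 months old, all had received 4-hydroxytamoxifen once on postnatal day 14, and in both groups the drug-activated Cre was expressed from Cd4. Both groups also carried a tdTomato reporter that Cre switches on for good. Cells were sorted as GFP+ Treg cells from spleen and lymph node, and the pooled mice cannot be told apart in the counts. With 1 library per group there was no replicate and no test was run. All intervals are exact 95% counting intervals that treat each UMI as independent. They do not cover differences between cells, mice or captures. The Foxp3 allele differs between the libraries, so allele and rescue cannot be told apart in any comparison of the libraries.

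Foxp3 is the forkhead transcription factor that defines Treg cells. It holds genes such as Il2 low and genes such as Il2ra and Ctla4 high. Its own gene is kept active through signals of the IL-2 receptor, which phosphorylate the factor STAT5, and through intronic enhancers. In droplet libraries only a fraction of each cell's RNA is captured, and a transcript of modest level is often missed in a cell that contains it.

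Promoter sequences are shown for 3 genes, namely the gene that set the classes, the Treg core gene with the most UMIs among those called higher in Foxp3+ cells in every reading below, and the gene with the lowest ratio. They are RefSeq windows of build GRCm38.p6, each with 250 bases before and 50 after an annotated start, on the plus strand. The table holds 2 windows for Foxp3 (gene chrX:7573644-7595245 in GENCODE), and both are shown. Window 1, chrX:7579426-7579725, covers most of the annotated transcript starts and holds no match. Window 2, chrX:7580233-7580532, lies at a start further inside the gene. Both Foxp3 windows overlap a Foxp3 exon and an exon of the long noncoding RNA Flicr. The Il2ra window, chr2:11642542-11642841, holds the start of its first exon. The Dapl1 window, chr2:59484403-59484702, also holds the first exon's start. Capitals mark the only matches, on either strand, to the letters TTCNNNGAA (a STAT motif) or TGTTTAC (a forkhead motif).
Foxp3 window 1: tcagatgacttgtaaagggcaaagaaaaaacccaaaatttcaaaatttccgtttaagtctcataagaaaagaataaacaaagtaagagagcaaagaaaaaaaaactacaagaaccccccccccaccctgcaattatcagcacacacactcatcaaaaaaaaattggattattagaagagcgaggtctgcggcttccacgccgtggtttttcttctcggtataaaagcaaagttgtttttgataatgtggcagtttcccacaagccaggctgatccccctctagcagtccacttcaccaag
Foxp3 window 2: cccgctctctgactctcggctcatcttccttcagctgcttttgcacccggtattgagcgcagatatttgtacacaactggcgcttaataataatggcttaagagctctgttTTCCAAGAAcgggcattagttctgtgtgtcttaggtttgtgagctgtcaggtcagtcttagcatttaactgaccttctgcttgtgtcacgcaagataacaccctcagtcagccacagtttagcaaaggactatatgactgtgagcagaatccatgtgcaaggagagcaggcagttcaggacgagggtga
Il2ra: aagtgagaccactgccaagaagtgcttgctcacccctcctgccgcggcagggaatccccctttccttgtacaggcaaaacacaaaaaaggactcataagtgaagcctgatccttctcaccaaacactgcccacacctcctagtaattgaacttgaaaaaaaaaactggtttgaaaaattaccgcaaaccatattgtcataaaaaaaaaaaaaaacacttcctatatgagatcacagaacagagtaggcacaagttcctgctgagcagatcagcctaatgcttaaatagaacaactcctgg
Dapl1: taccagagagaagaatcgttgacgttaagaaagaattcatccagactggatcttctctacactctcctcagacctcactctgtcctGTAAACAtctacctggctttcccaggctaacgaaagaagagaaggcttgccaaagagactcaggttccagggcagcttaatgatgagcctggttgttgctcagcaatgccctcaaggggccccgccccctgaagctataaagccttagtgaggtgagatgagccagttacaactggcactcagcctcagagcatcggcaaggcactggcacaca
The match in Foxp3 window 2 was the STAT motif, beginning 139 bases before the start, and the Dapl1 match was the forkhead motif, 164 bases before. Over all 32851 windows, 8.30% held the STAT letters and 3.65% the forkhead letters. A match is a description and not a binding site.

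A control cell without a Foxp3 UMI could not be told from a cell that contained the transcript. Foxp3 gave 1250 UMIs in the control library, 80.9 CPM (the gene's count divided by all counts of the same cells, on the usual scale) with an interval of 76.5 to 85.5. A median Foxp3- cell held 3674 UMIs, so that its count of 0 allows a level of up to 816 CPM, far above that mean. By count, 728 cells held 1 Foxp3 UMI, 172 held 2, 47 held 3 and 9 held 4 or 5. Had every control cell had 1 uniform level, 28.2% of cells would have held a Foxp3 UMI by counting alone, and 26.3% did (24.9 to 27.8%). Cells with 3 UMIs were more frequent than under the uniform level (47 against 24.9), and cells with 1 UMI were fewer (728 against 838). In rescued cells the observed share was 71.7% and the share under a uniform level 83.4%, at a mean of 468 CPM.

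Class membership followed depth. In the decile of control cells with the fewest UMIs (median 2290), 17.3% were Foxp3+ (13.6 to 21.6%), and in the decile with the most (median 8117) 43.1% were (37.98 to 48.4%). The level ran the other way, from 89.8 CPM in the lowest decile to 71.5 CPM in the highest, with intervals of 70.4 to 113 and 62.7 to 81.2 that overlap. With every cell thinned to 1000 UMIs, a Foxp3 UMI remained in 8.01% of control cells (7.15 to 8.94%), and in rescued cells that share was 34.3%. Foxp3+ cells had more UMIs, with a median of 3980 (1727 to 46139) against 3674 (1415 to 22719) in Foxp3- cells. For this reason many ratios are also given depth-matched, and a ratio with no reading named is as counted. Matching paired 948 Foxp3+ cells 1 to 1 with Foxp3- cells whose UMI total differed by at most 5%. The other 8 Foxp3+ cells had no partner.

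**Figure D1:**
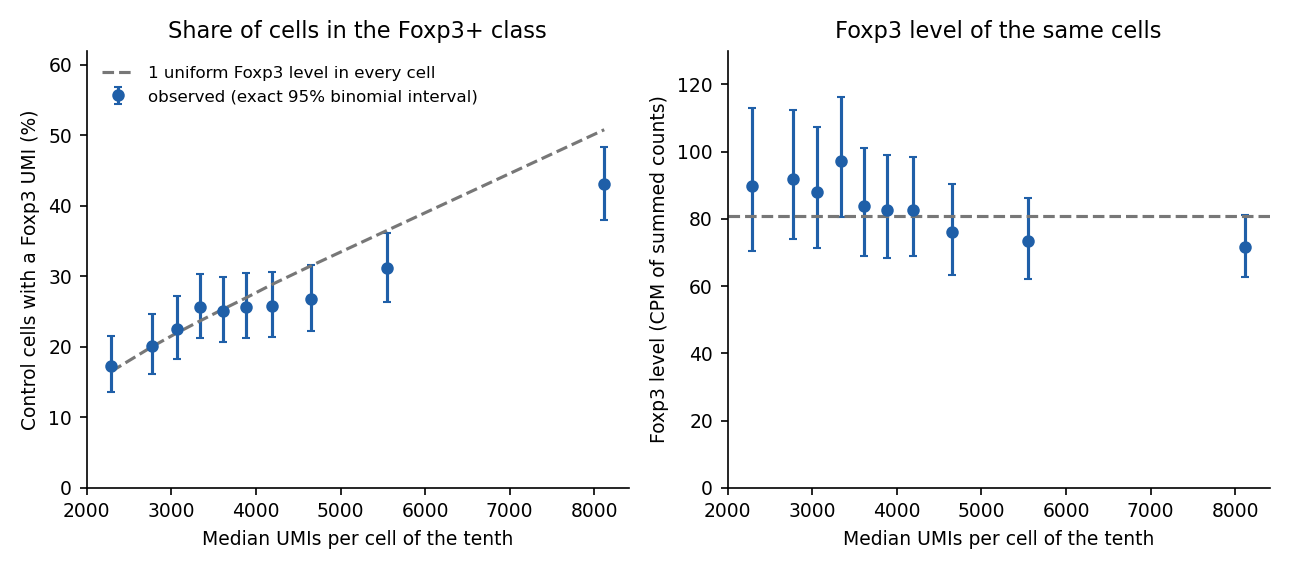
Share of control cells with a Foxp3 UMI (left, in percent) and Foxp3 level (right, CPM) in 10 groups of cells ordered by UMIs per cell, plotted at each group's median UMIs, with exact 95% intervals. The dashed lines mark 1 uniform level in every cell, 80.9 CPM; the share climbs from 17.3 to 43.1% while the level falls from 89.8 to 71.5 CPM.

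Transcripts of Treg genes were counted in Foxp3- cells at levels near those of Foxp3+ cells. The Treg genes Ikzf2, which encodes the factor Helios, and Izumo1r, the folate receptor 4 gene, stood at 1223 and 1198 CPM in Foxp3- cells, against 1371 and 1289 CPM in Foxp3+ cells. Tnfrsf18, the GITR gene, had 376 CPM in Foxp3- and 430 CPM in Foxp3+ cells, and the inhibitory receptor gene Ctla4 had 251 and 307 CPM. After thinning to 1000 UMIs, 54.5% of Foxp3- and 59.7% of Foxp3+ cells held an Ikzf2 UMI. Izumo1r gave 57.2% and 63.1% in the same way. The library held no cell type that lacks these genes, so the share that free RNA gives could not be measured, and its part in these values was not tested. The cytokine gene Il2, which Treg cells hold low, gave 150 UMIs in all control cells and a log2 ratio of -0.02.

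Over all genes, differences between the classes were small. Of 7482 genes with at least 200 control UMIs, the log2 CPM ratio (Foxp3+ to Foxp3-) centred on 0.02 (the median), with 5% of genes below -0.22 and 5% above 0.28. A gene is called higher or lower here when its log2 ratio was at least 0.3 in size and its counting interval lay on the same side of 0. By that limit 234 genes, 3.13%, were higher and 97 genes, 1.3%, were lower in Foxp3+ cells. Counting error alone can also put unchanged genes past this limit, so these numbers do not measure how many genes differ. In the depth-matched cells 238 genes, 3.18%, were higher and 107 genes, 1.43%, were lower. Of the 234 genes, 229 kept their direction after matching and 101 were also called there. Of the 97 lower genes, all 97 kept their direction and 48 were also called. The matched cells are a part of the same control cells, so a kept direction is no independent result.

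A gene can pass this limit through few cells. Leaving out, for each gene, the cell with the most UMIs of it left 181 of the 234 higher and 84 of the 97 lower genes called. Comparing the classes within groups of like cells (9 clusters, described further on) left 138 and 68 past the fold. These readings reuse the same control cells and are not independent of each other. Passing every one of these readings were 69 higher and 38 lower genes of the 7482 tested. They still include genes found in few cells, such as Igkc (65 cells), Cxcl10 (108), Klrg1 (122) and Dapl1 (123). Of the 69 and 38 genes, 9 and 6 were also called in the same direction in rescued cells, among genes with at least 200 rescued UMIs. Of all such genes 2.78% were called higher and 1.87% lower in rescued cells. Dapl1, below 200 UMIs in rescued cells, was called lower there too. The 9 were the Treg and effector genes Il2ra, Lrrc32, Socs2, Klrg1, Ccl5, Serpina3g and Il10ra together with Crem and Mapk9, and the 6 were Cxcl10, Cd9, C1qtnf4, Ccdc64, 6330403K07Rik and Ppp1r3fos. Both sets were picked out after their values were seen.

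**Figure D2:**
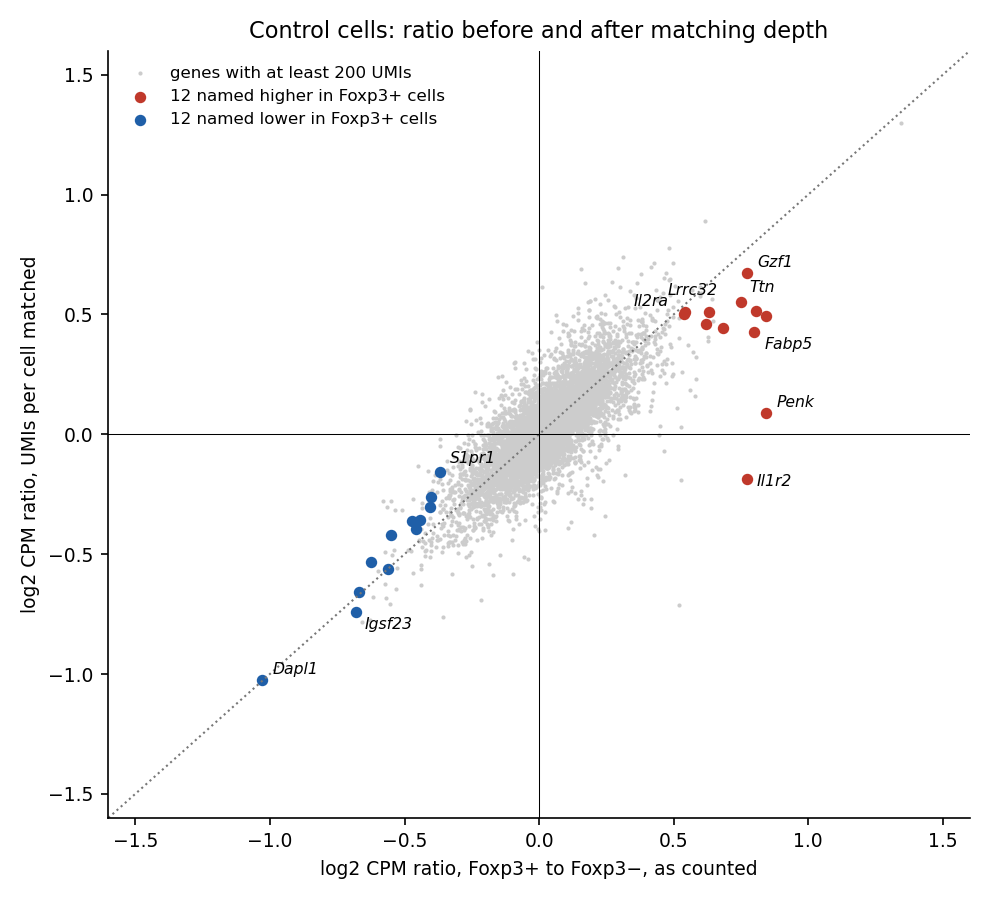
Log2 CPM ratio of Foxp3+ to Foxp3- control cells as counted (x axis) and in depth-matched cells (y axis) for genes with at least 200 UMIs, with the 12 named higher genes in red and the 12 named lower genes in blue. Most points lie near the dotted line of equal values; Penk goes from 0.84 to 0.09 and Il1r2 from 0.77 to -0.19, while Il2ra stays near 0.5.

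The genes highest in Foxp3+ cells included the IL-2 receptor and molecules of effector Treg cells. Il2ra, which encodes the alpha chain (CD25) of the high-affinity IL-2 receptor, had 358 CPM in Foxp3+ cells (1640 UMIs) and 247 CPM in Foxp3- cells (2679 UMIs). Its log2 ratio was 0.54 (0.45 to 0.63) as counted, 0.50 (0.39 to 0.61) depth-matched, and 0.40 within clusters. Counts of Il2ra were spread over 1766 cells with at most 23 UMIs in 1 cell. Thinned to 1000 UMIs, 25.8% of Foxp3+ and 18.8% of Foxp3- cells held an Il2ra UMI.

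Il2ra was higher at nearly every depth. In the lowest decile by UMIs it stood at 190 CPM in Foxp3+ and 213 CPM in Foxp3- cells, a log2 ratio of -0.17 from 27 and 143 UMIs (-0.82 to 0.43). The other 9 deciles ran from 0.17 to 0.90, 8 of them with intervals above 0. By clusters the ratio was above 0 in 9 of 9, from 0.20 in cluster 6 to 0.85 in cluster 5, with 8 intervals above 0.

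Lrrc32 encodes GARP, which anchors latent TGF-beta to the Treg cell surface. It had 125 CPM in Foxp3+ and 80.4 CPM in Foxp3- cells, a log2 ratio of 0.63 (0.48 to 0.79), and 0.51 (0.32 to 0.70) after matching. The ratio was above 0 in all 10 deciles of depth and in 8 of 9 clusters, with intervals above 0 in 5 deciles and 4 clusters. Socs2, a STAT5-induced inhibitor of cytokine signals, had 76.0 and 53.8 CPM, a log2 ratio of 0.50 (0.30 to 0.69) and 0.49 (0.25 to 0.73) after matching. Socs2 varied more with depth, from -2.28 to 1.22 across the deciles, with 8 of 10 above 0. Its intervals lay above 0 in 3 deciles and below 0 in 1, where Foxp3+ cells gave 2 UMIs.

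Rgs1 restrains chemokine receptor signals and Serpina3g inhibits proteases in activated T cells. Rgs1 was the most abundant of the 12, with 599 CPM in Foxp3+ and 411 CPM in Foxp3- cells, a log2 ratio of 0.54 (0.47 to 0.61) as counted and 0.51 (0.42 to 0.60) matched. It was above 0 in all 10 deciles, 9 of them with intervals above 0. Serpina3g had 152 and 99.1 CPM, a log2 ratio of 0.62, and 0.46 matched. In rescued cells Serpina3g had 0.62 (0.50 to 0.73) and Rgs1 0.08 (0.00 to 0.16).

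Other high ratios rested on few cells. Penk, the enkephalin precursor, had a log2 ratio of 0.84 from UMIs in 150 cells. A single Foxp3+ cell gave 115 of its 927 UMIs, and the ratio was 0.35 (0.14 to 0.57) without that cell and 0.09 (-0.16 to 0.34) after matching. Il1r2, a decoy receptor for IL-1, had 0.77 from 112 cells and -0.19 (-0.57 to 0.19) after matching. The chemokine gene Ccl5 had 0.68, and 0.38 (0.24 to 0.52) without 1 Foxp3+ cell that gave 157 UMIs. The inhibitory receptor gene Klrg1, in 122 cells, had 0.81, and 0.52 (0.15 to 0.89) matched.

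The remaining 4 of the 12 were Fabp5, a fatty acid carrier, Cdca7, a cell division gene, Ttn, the giant muscle protein titin, and the zinc finger gene Gzf1. Fabp5 had 77.5 CPM in Foxp3+ and 44.5 CPM in Foxp3- cells, a log2 ratio of 0.80, and 0.43 (0.18 to 0.67) matched. Cdca7 had 0.84 and 0.49, Ttn 0.75 and 0.55, and Gzf1 0.77 and 0.67 as counted and matched. In all, 11 of the 12 were above 0 and 10 were called after matching, the exceptions to the call being Penk and Il1r2.

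The 12 genes lowest in Foxp3+ cells were Dapl1, Ly6c1, Cxcl10, Satb1, Cd9, Ifit3, Rasgrp2, Rad9a, Ms4a4c, S1pr1, Igsf23 and Siah2. Dapl1, a gene of naive T cells, had 14.2 CPM in Foxp3+ (65 UMIs) and 29.0 CPM in Foxp3- cells (315 UMIs), a log2 ratio of -1.03 (-1.44 to -0.64), and -1.03 (-1.48 to -0.59) matched. It was found in 123 cells, and without the Foxp3+ cell with the most Dapl1 UMIs the ratio was -1.44. The Dapl1 ratio was nearer 0 within clusters (-0.56), thinned (-0.58), in cells of at least 4000 UMIs (-0.52) and in cells of at most 10% mitochondrial UMIs (-0.35). In decile 8 of depth Dapl1 was higher in Foxp3+ cells, at 0.79 (0.07 to 1.49). Satb1, a chromatin organizer that Foxp3 is known to lower, had 190 and 251 CPM in the 2 classes. Its log2 ratio of -0.40 (-0.51 to -0.29) became -0.26 (-0.39 to -0.13) matched and -0.11 within clusters. It lay below 0 in all 10 deciles of depth, 3 of them with intervals below 0.

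Ly6c1 had a log2 ratio of -0.47 and S1pr1, the receptor that lets T cells leave lymphoid organs, -0.37. Both were near 0 within clusters, at -0.03 and -0.07. Rasgrp2, an activator of the integrin switch Rap1, had -0.40, and -0.13 within clusters. Ms4a4c had -0.46, and -0.20 within clusters. The tetraspanin gene Cd9 had 84.1 and 114 CPM, a log2 ratio of -0.44 (-0.61 to -0.28), and kept -0.32 within clusters. The interferon-induced genes Cxcl10 and Ifit3 had -0.67 and -0.55, and within clusters -0.99 and -0.12. Cxcl10 UMIs came from 108 cells and 39 of them from 1 cell, without which the ratio was -0.47 (-0.85 to -0.09). Rad9a had -0.62, Igsf23 -0.68 and the ubiquitin ligase gene Siah2 -0.56. All 12 stayed below 0 after matching and 10 of them were called, the others being Satb1 and S1pr1, while within clusters 6 of the 12 were past the fold.

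Lists of genes were read against all 9708 genes with at least 50 control UMIs, of which 357, 3.68%, were called higher, 144, 1.48%, were called lower, 56.7% lay above 0 and the median was 0.02. Each list below was drawn up with earlier results of these data known, and the activation and persisting-subset lists had been named from these libraries.

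The 20 genes of the Treg core list all lay above 0, with a median log2 ratio of 0.23 and 6 called higher. Besides Il2ra, Lrrc32 and Socs2 these were the integrin gene Itgae (0.43), Tnfrsf4 (0.34), which encodes OX40, and Tnfrsf9 (0.34), which encodes 4-1BB. Matching lowered the median to 0.16 with 18 of 20 above 0 and 5 called, where Entpd1 (0.37) joined Il2ra, Lrrc32, Socs2 and Itgae while Tnfrsf4 and Tnfrsf9 were at 0.09 each. Within clusters the median was 0.09. The list's largest transcripts had small ratios, with 0.17 for Ikzf2, 0.11 for Izumo1r, 0.20 for Tnfrsf18 and 0.13 for both Capg and Nrp1. Ctla4 had 0.29, just under the limit, and 0.23 (0.12 to 0.35) matched. The ratios of Ikzf4, Gpr83 and Il2rb were 0.21, 0.20 and 0.25. Cd83 was above 0 as counted (0.18) and below 0 matched (-0.21). The last 4, Tnfrsf1b (0.07), Nt5e (0.09), Entpd1 (0.26) and Tigit (0.37), had intervals that included 0, and Tigit had 54 UMIs in all.

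The suppressor list holds molecules tied to Treg suppression and also receptors such as Klrg1 and Il1rl1, which do not themselves restrain other cells. It had 7 of 17 members called higher and 17 above 0, with a median of 0.34. After matching the median was 0.24, with 5 called higher and 1 lower. The 7 were Klrg1 and the 6 genes that follow. Itgb8, whose integrin activates TGF-beta, had 0.58, Ebi3, a chain of IL-35, 0.47, and Il1rl1, the IL-33 receptor, 0.53. The cytokine gene Il10 had 24 UMIs in Foxp3+ and 30 in Foxp3- cells, a log2 ratio of 0.92 (0.09 to 1.75). The protease gene Gzmb, in 51 cells, had 0.60 but -0.22 without 1 Foxp3+ cell that gave 35 of its 208 UMIs. The inhibitory receptor gene Lag3 had 0.34. The more abundant Tgfb1 was near 0 as counted (0.01) and matched (0.00), and Lgals1, which encodes galectin-1, was near 0 as counted (0.02) but lower once matched (-0.40, -0.50 to -0.30).

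Some activation genes were called higher and some resting genes lower. Of 10 activation genes 4 were called higher, with a median of 0.27. These were the costimulatory receptor Icos (0.35), the chemokine receptor Ccr6 (0.65), Itgae and the ligand-activated factor Ahr (0.36). Of 5 genes that mark a persisting subset, Lrrc32, Il2ra and Epcam (0.36) were called and the median was 0.36, with Ifngr1 at 0.11 and Il4ra at 0.03. Of 10 resting genes 3 were called lower (Satb1, Ly6c1 and S1pr1) and 9 were below 0, with a median of -0.22. Klf2, which drives S1pr1, had -0.26, and Tcf7 -0.26. The resting median moved to -0.09 after matching and to 0.02 within clusters. The activation median was 0.22 matched and 0.12 within clusters, and the persisting-subset median 0.30 and 0.16. Of 16 genes that Foxp3 lowers or that mark conventional T cells, 12 were below 0 with a median of -0.15. Dapl1, Satb1 and Themis (-0.45) were called lower, and Id2 (0.36) was called higher.

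Among genes of the IL-2 pathway, those called were the receptor's alpha chain and STAT5 targets. The list had a median of 0.13 and 3 of 18 members called higher, namely Il2ra, Socs2 and Cish (0.31), a STAT5-induced inhibitor. After matching the median was 0.17 and 4 were called, with Cish at 0.47. Il2rb, the receptor's beta chain, had 0.25. The common chain Il2rg (-0.01), the kinases Jak1 (-0.09) and Jak3 (-0.05), and Stat5a (-0.05) and Stat5b (0.04) lay near 0.

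Partners of the Foxp3 protein and regulators of its gene were close to all genes. Of 26 partners 1 was called higher (Irf4, 0.53, and 0.03 matched) and 1 lower (Satb1), with a median of 0.05. Runx1 had 0.13 and Gata3 -0.03. Of 25 regulators of the Foxp3 promoter and enhancers 0 were called higher and 1 lower (Satb1), with a median of 0.02. Among these, Foxo1 had 0.07, Cbfb -0.03 and Nfatc1 0.15. Receptor complex genes likewise had 0 of 16 called and a median of -0.05, with Cd3e at -0.06 and Cd4 at 0.05. For 14 genes induced by receptor signals the median was 0.11, with Irf4 and Tnfrsf9 called, and 0.03 matched.

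Cell cycle counts came from few cells. Of 16 members 6 were called higher, with a median of 0.24, and after matching the median was -0.13 with 4 above 0. Mki67 had 64 and 69 UMIs in the 2 classes, a ratio of 1.14, and 0.35 without 1 Foxp3+ cell of 21309 UMIs that gave 27 of them. The same cell gave 57 of the 361 Stmn1 UMIs, whose ratio of 0.52 was -0.26 without it. The interferon list had a median of -0.13, with Ifit3 and Usp18 (-0.33) called lower of 15 and 12 below 0. Respiratory chain genes (median -0.02, 0 of 18 called) and cytoskeleton genes (-0.07, 0 of 16) differed little, as did genes raised by tissue handling (-0.05, 0 of 13).

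**Figure D3:**
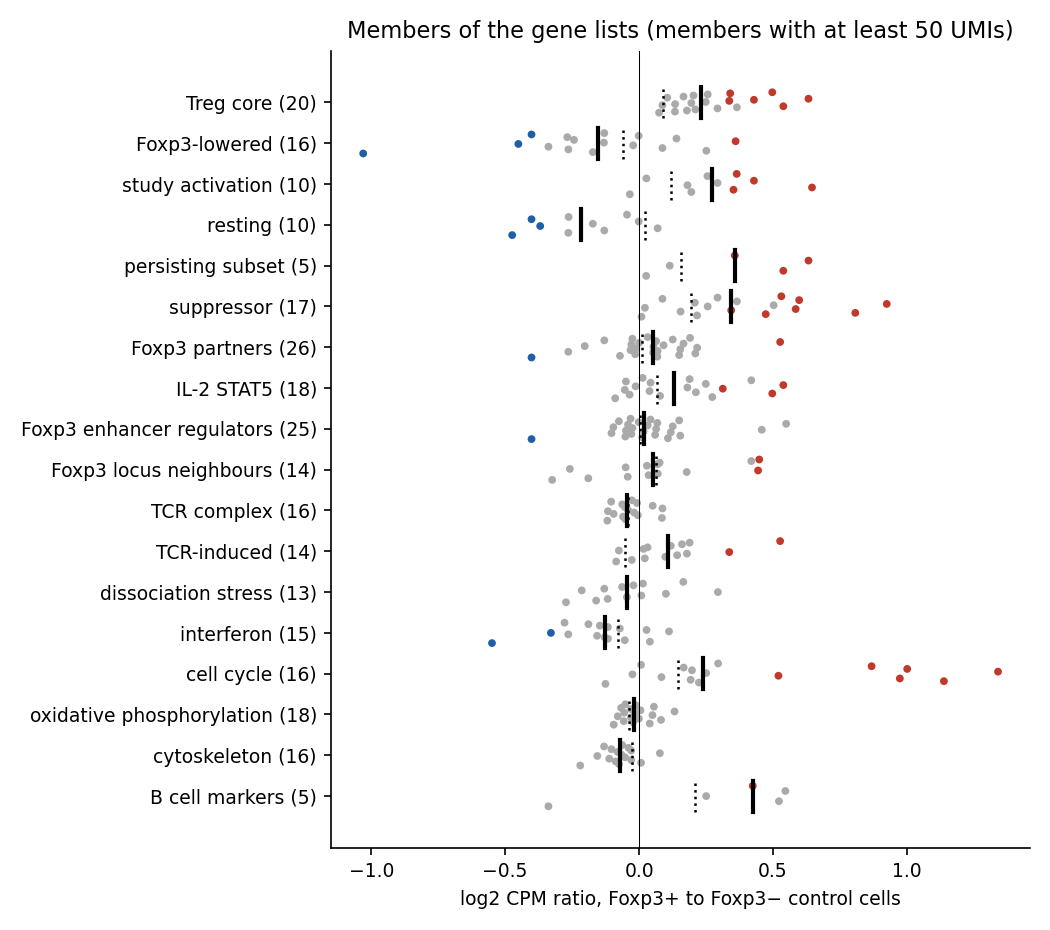
Log2 CPM ratio of Foxp3+ to Foxp3- control cells for each member of the lists with 5 or more members at 50 UMIs or more (number in brackets), red where called higher and blue where called lower. The solid bar is the list median and the dotted bar the median within clusters; the Treg core list has all 20 points above 0, and the resting median moves from -0.22 to 0.02.

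Defining transcripts of other cell types were at or near 0 in both classes, while some immunoglobulin and class II genes were counted. Of the B cell list, Ms4a1 was at 0 and Cd79a had 11 UMIs in Foxp3+ and 24 in Foxp3- cells. The summed list had 249 CPM in Foxp3+ and 190 CPM in Foxp3- cells, most of it Cd74, the invariant chain gene (858 and 1517 UMIs, log2 ratio 0.42). Igkc, an immunoglobulin light chain, had 123 and 115 UMIs in 65 cells, a log2 ratio of 1.34 (0.96 to 1.72), and 1.02 without the cell with most. Ighm, the IgM heavy chain gene, had 857 CPM in Foxp3+ and 809 CPM in Foxp3- cells, with UMIs in 2846 cells and a log2 ratio of 0.08 (0.03 to 0.14). Ighd had 75 and 128 UMIs and was called higher at 0.48 (0.04 to 0.90). The part of B cell RNA in the results was not tested. The myeloid genes S100a8, S100a9, Csf1r and Adgre1 were at 0, and the summed myeloid list had 167 and 170 CPM, nearly all Cst3. CD8 and NK genes summed to 77.5 and 66.5 CPM, with 1 Cd8a UMI in all and Nkg7 (0.41) called higher. Red blood cell genes gave 1 and 4 UMIs. Mitochondrial transcripts made up 9.22% of UMIs in Foxp3+ and 9.44% in Foxp3- cells. Of Foxp3+ cells 5.02%, and of Foxp3- cells 3.03%, were among the 3.5% of control cells with the highest doublet scores. Without those cells 232 genes were called higher and 99 lower.

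Foxp3 detection differed between groups of like cells. Control cells fell into 9 clusters, built without Foxp3, and each is called by its leading genes. Cluster 6, led by Socs2, Myc and Lrrc32, had 132 Foxp3+ cells of 354 (37.3%, 32.2 to 42.6%) and the highest Foxp3 level, 113 CPM (97.2 to 131). Cluster 2, led by Hoxb4 and Cybb, had 32.7% and 101 CPM (89.7 to 113). Cluster 1, led by Dapl1, Ly6c1 and Igfbp4, had 18.0% (15.2 to 21.0%) and 59.7 CPM (50.7 to 69.7). Cluster 5, led by the cholesterol synthesis genes Sqle, Idi1 and Cyp51, had 19.5% and 57.4 CPM (46.0 to 70.7). Genes that lead clusters 6 and 1 are also among those named above, so the cluster shares are no separate result.

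Shares also moved with depth. Cluster 9, led by Nefh, Il1r2 and Irf8 with the division genes Cdca7 and Stmn1 among its top 10, had the largest share, 40.2% (30.1 to 51.0%), but a median of 5992 UMIs and a level of 71.7 CPM (53.0 to 94.8). Standardised over the 9 deciles of depth in which it had cells, its share was 33.9%, under the 35.4% of cluster 6. Cluster 3, led by Gbp2b and Csf1, was the shallowest with a median of 3111 UMIs, and its share moved from 26.3 to 30.2%. Clusters 4, 7 and 8, led by Penk and Pdcd1, by Ccr2 and S100a4, and by Ifit3 and Ifit1, had 79.7, 64.5 and 63.2 CPM.

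**Figure D4:**
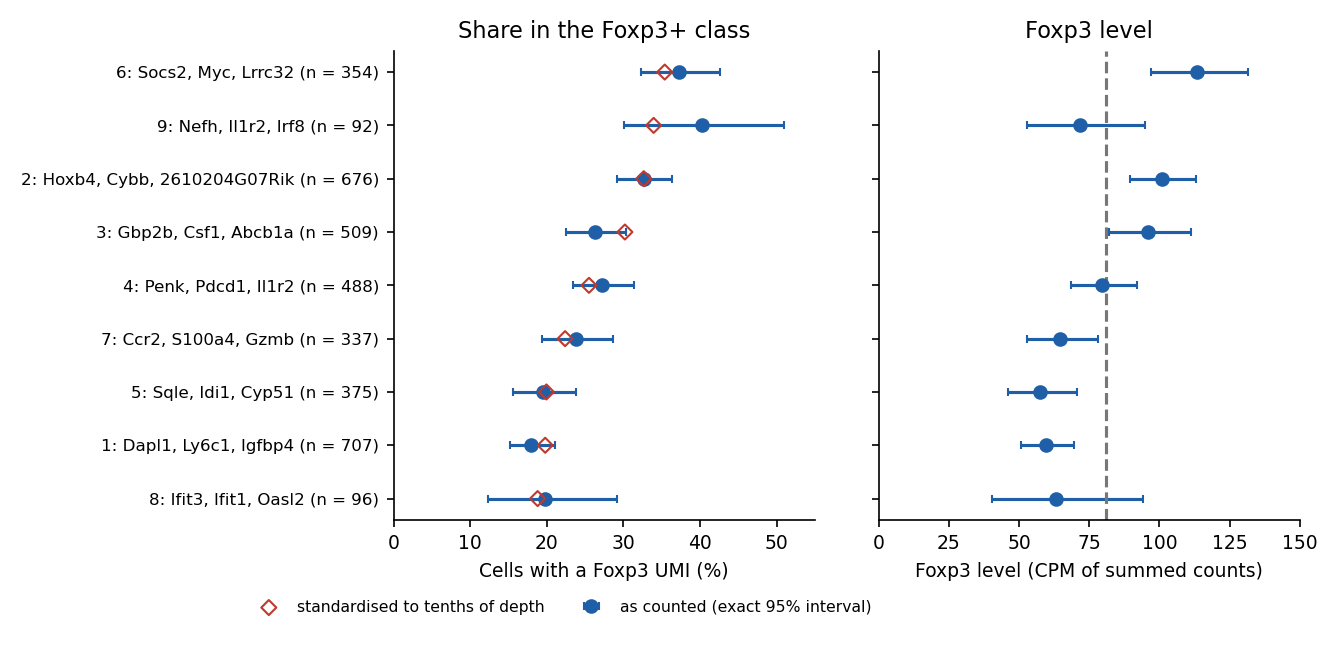
Share of cells with a Foxp3 UMI (left, percent) and Foxp3 level (right, CPM) in the 9 clusters of control cells, each labelled with its number, 3 leading genes and cells, with exact 95% intervals and, as diamonds, shares standardised to depth. Levels run from 57.4 CPM in cluster 5 to 113 CPM in cluster 6, on either side of the dashed line at 80.9 CPM for all control cells.

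Ratios were also read by the number of Foxp3 UMIs, against the same Foxp3- cells. The 728 cells with exactly 1 Foxp3 UMI lay just inside the limit of the class. Their ratios were nearer 0 than those of cells with 2 or more UMIs for 8 of the 12 highest, 9 of the 12 lowest and 13 of the 20 Treg core genes, and the intervals of the readings were apart for 4, 2 and 7 genes of those sets, in either direction. Il2ra had 0.51 (0.41 to 0.61) with 1 UMI and 0.61 (0.47 to 0.75) with 2 or more, which overlap. Ikzf2 had 0.11 (0.06 to 0.16) and 0.31 (0.24 to 0.38), and Ccl5 0.15 (-0.02 to 0.31) and 1.56 (1.40 to 1.73). Other ratios were smaller with 2 or more UMIs, as for Penk (0.99 and 0.36), Cdca7 (0.94 and 0.56), Itgae (0.47 and 0.32) and Igsf23 (-0.80 and -0.40). The Penk and Ccl5 values include the single Foxp3+ cells that gave 115 and 157 of their UMIs. They were not read without those cells, and the part of those cells in these values was not tested. No change with the number of Foxp3 UMIs is therefore read from either gene. Gpr83 changed sign, from 0.33 to -0.22 (-0.53 to 0.08). The Treg core median was 0.23 with 1 UMI and 0.32 with 2 or more. Cells with more Foxp3 UMIs were also deeper.

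Cells with more tdTomato UMIs were more often Foxp3+ and were deeper. A tdTomato UMI was found in 62.9% of control cells, no library here lacked the reporter allele to give a background share, and a UMI is therefore not read as marking a cell in which Cre acted. The share was 21.3% (19.2 to 23.6%) at 0 tdTomato UMIs, 25.7% at 1 and 31.9% (29.4 to 34.5%) at 2 or more, where the median depth was 3508, 3697 and 4098 UMIs. Foxp3 levels were 72.2 (65.0 to 80.1), 79.5 and 88.4 CPM (81.3 to 95.9). In the other direction, tdTomato had 398 CPM in Foxp3+ and 387 CPM in Foxp3- cells, a log2 ratio of 0.04 (-0.04 to 0.12), and -0.01 after matching. After thinning to 1000 UMIs, 32.2% of Foxp3+ (29.3 to 35.3%) and 26.3% of Foxp3- cells (24.6 to 28.0%) held a tdTomato UMI, and the log2 ratio of the thinned counts was 0.23.

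A noncoding RNA of the Foxp3 locus had lower counts in cells with a Foxp3 UMI. The gene listed as Ppp1r3fos is named Flicr in RefSeq (chrX:7573600-7581016), lies on the same strand as Foxp3 and overlaps it, and is known to restrain Foxp3 expression. It was picked out after its values were seen. It had 92 UMIs (20.1 CPM) in Foxp3+ and 293 UMIs (27.0 CPM) in Foxp3- cells, a log2 ratio of -0.42 (-0.78 to -0.08), -0.45 (-0.86 to -0.05) matched and -0.43 within clusters. The ratio was below 0 in 8 of 10 deciles of depth and 8 of 9 clusters, with 0 deciles and 1 cluster having an interval below 0. After thinning to 1000 UMIs, the share of cells with its UMI was 2.20% in Foxp3+ (1.36 to 3.34%) and 2.24% in Foxp3- cells (1.71 to 2.88%), with no difference detectable at that depth.

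Neighbouring genes showed no common direction. Of 14 neighbours within the surrounding X region, 2 were called higher (Syp, 0.44, and Praf2, 0.45) and 0 lower, with a median of 0.05. Ccdc22, which meets the 3′ end of Foxp3 from the opposite strand, had -0.32 (-0.66 to 0.00). Because Flicr overlaps Foxp3 on the same strand, reads of the shared stretches cannot be assigned with certainty, and the part of that in its ratio was not tested.

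Rescued cells, which the rule did not use, were split in the same way into 2432 Foxp3+ and 958 Foxp3- cells. Of 7557 genes with at least 200 rescued UMIs, 210, 2.78%, were called higher and 141, 1.87%, lower. Of the 226 higher control genes with enough rescued UMIs, 142 lay above 0 in rescued cells, 31 were called higher and 8 called lower. Over all 7331 genes measured in both libraries, 3953 lay above 0. Of 90 lower control genes, 51 lay below 0, as did 3378 of all 7331, and 7 were called lower and 3 higher.

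Several Treg genes lay above 0 in both libraries. In rescued cells Il2ra had a log2 ratio of 0.50 (0.40 to 0.60), Lrrc32 0.37 (0.23 to 0.50), Socs2 0.54 (0.34 to 0.75) and Ctla4 0.29 (0.21 to 0.38). Klrg1 had 1.15 (0.84 to 1.48) and Ccl5 0.70 (0.56 to 0.85). Rescued Foxp3+ cells were deeper, with a median of 4042 UMIs against 3454 in rescued Foxp3- cells. In depth-matched rescued cells Il2ra had 0.49, Lrrc32 0.30, Socs2 0.70, Ctla4 0.21, Klrg1 0.62 and Ccl5 0.71. Of the 12 named higher genes 10 lay above 0 and 5 were called as counted, with Gzf1 (-0.25) and Il1r2 (-0.02) below 0. After matching, Penk (-0.58) and Fabp5 (-0.12) also lay below 0. Of the 12 lower genes 9 lay below 0 and 3 were called, namely Dapl1 (-0.93), Cd9 (-0.59) and Cxcl10 (-0.58). Ifit3 (0.22), Rasgrp2 (0.10) and S1pr1 (0.01) lay above 0. The Treg core median was 0.26 with 15 of 20 above 0 and 7 called higher. Gpr83 (-0.19, -0.34 to -0.04), Nt5e (-0.17, -0.28 to -0.06) and Izumo1r (-0.05, -0.09 to -0.01) had intervals below 0. Ikzf4 (-0.11) and Cd83 (-0.03) also lay below 0, with intervals that included 0. The interferon median was 0.19 against -0.13 in control cells. Flicr, listed as Ppp1r3fos, had 21.9 CPM in rescued Foxp3+ and 40.1 CPM in rescued Foxp3- cells, a log2 ratio of -0.88 (-1.17 to -0.57), and Ccdc22 had -0.81 (-1.11 to -0.50). The differences between the libraries were not tested.

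**Figure D5:**
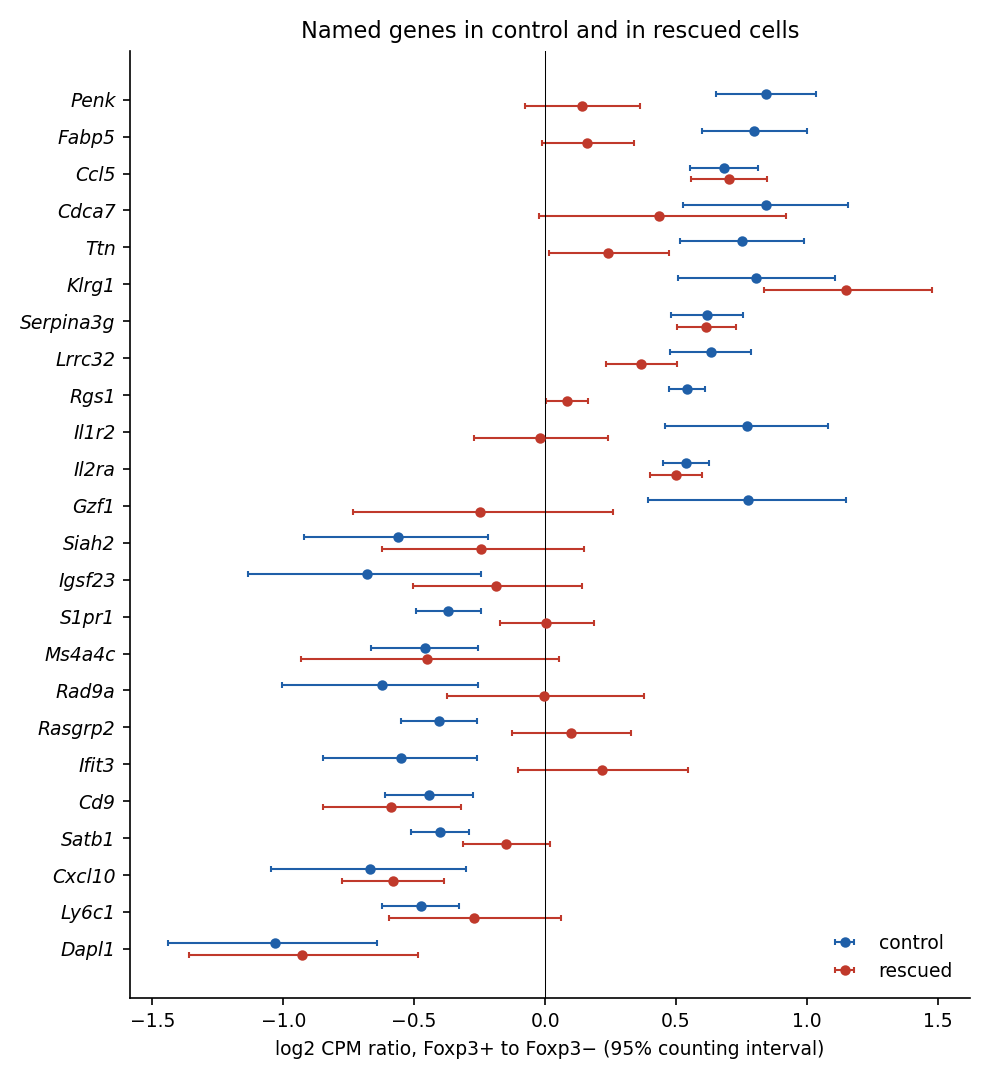
Log2 CPM ratio of Foxp3+ to Foxp3- cells with its 95% counting interval for the 12 named higher and 12 named lower genes, in control (blue) and rescued (red) cells. Il2ra, Klrg1, Ccl5, Serpina3g, Lrrc32, Ttn and Rgs1 have both intervals above 0, and Dapl1, Cd9 and Cxcl10 both below 0. Of the higher genes, Penk, Il1r2, Gzf1, Fabp5 and Cdca7 have rescued intervals that include 0.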

How the data were processed

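The libraries were 10x Chromium 3′ droplet libraries, 1 per group, of sorted Treg cells. Reads were counted by the authors in Cell Ranger 3.0 against GRCm38 with the tdTomato allele added, and the submitters' processing notes also name Seurat 3.1.5. The deposited counts are whole numbers of UMIs per cell and gene for 16098 genes, not normalized. The authors describe removing cells by mitochondrial share and total molecules, and these limits were not applied again. The median mitochondrial share of the deposited control cells was 9.43%. This is above the limit that the paper states, so that limit does not hold in these counts. The deposited log-transformed table was not used here. Cells were assigned to libraries by the prefix of their names, and 3 barcodes occurred in both libraries.

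Counts were summed per class and divided by the class total (CPM). Ratios carry conditional exact intervals, sums Poisson and shares Clopper-Pearson intervals, all at 95% and for counting error only. A count of 0 was given a limit of 3 counts. Weighted readings (clusters, deciles, mean CPM) used a Poisson approximation. The ratio and call were tested on simulated data. Clusters came from scanpy 1.11.5 (2000 variable genes, 30 components, 15 neighbours, Leiden resolution 1) without Foxp3, tdTomato, mitochondrial, ribosomal, immunoglobulin and receptor segment genes. Doublets were scored with Scrublet, whose own threshold marked 5 cells, so cells were ranked instead, and none was removed from the main values. Named genes were the 12 with the highest lower bound and the 12 with the lowest upper bound among genes with at least 200 UMIs (the same gene classes left out), the Treg core list, tdTomato and 2 to 4 examples of each other list, by UMIs or by call. Members and lists were chosen with earlier results of these data known. Alternatives changed depth, scaling, class limit, cell groups, doublets, mitochondrial share and low-count filters. Python 3.11.15, numpy 2.4.6 and scipy 1.17.1 were used.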

Additional observations from a re-analysis of the deposited data

Results flagged for a closer look

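Among the named and listed genes, 2 were called in opposite directions in the control and rescued libraries. Lag3, an inhibitory receptor gene, had a log2 ratio of 0.34 (Foxp3+ to Foxp3-) in control cells and -0.60 in rescued cells (-0.77 to -0.43). In control cells 1 Foxp3+ cell gave 36 of its UMIs, and the ratio without that cell was 0.19, which no longer passed the limit of 0.3. In rescued cells it was -0.64 without the top cell and -0.26 in depth-matched cells. Syp, which lies 43.2 kb downstream of Foxp3, had 0.44 in control cells and -1.07 in rescued cells (-1.47 to -0.67). Syp UMIs came from 184 cells in each library with at most 4 in 1 cell, and the depth-matched values were 0.55 and -0.86. Without the top cell of Syp the values were 0.37, whose interval included 0, and -1.025. The difference between the libraries was not tested for either gene, and the Foxp3 allele differs between the libraries.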

How the results depend on the processing

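No paired analysis was possible because there was a single library per group and no test was run. The readings without each gene's highest cell and without the 5 cells over 20000 UMIs were chosen after seeing the data. Of 150 alternative values of the counts, list medians and the Foxp3 share, 139 stayed within 1.5 times the count or within the interval of the value as counted, and 11 did not. Of the list medians 4 values changed sign. These were the resting median within clusters and, close to 0 throughout, the median of Foxp3 enhancer regulators (0.017) when thinned (-0.049), by deciles (-0.0064) and by mean CPM (-0.0031). The 234 higher and 97 lower genes became 370 and 151 with a class of 2 or more Foxp3 UMIs, 27 and 14 among genes with at least 1000 UMIs, and 37 and 23 at a log2 size of 0.5. Standardised to clusters there were 151 higher genes. The share of Foxp3+ cells was 8.008% after thinning to 1000 UMIs. The Treg core median was 0.088 within clusters. The resting median was -0.087 with UMIs per cell matched and 0.023 within clusters. Named genes changed sign in 21 values, 9 of them of genes whose interval had excluded 0 as counted. These included Il1r2 (-0.19), matched, Ms4a4c (0.058), thinned, and Gpr83 (-0.22), with 2 or more Foxp3 UMIs. Cd83 changed sign matched (-0.21), by deciles of depth (-0.0056), in cells of at least 4000 UMIs (-0.0086) and within clusters (-0.17), and Tnfrsf9 (-0.024) and Izumo1r (-0.033) within clusters. The other 12 were values of Tnfrsf1b, Nt5e, Entpd1 and tdTomato, whose intervals included 0. The cause was not tested. At this depth 1 Foxp3 UMI in a median cell exceeds the mean level.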

Other observations

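Promoter letters were counted in the genes called in control cells, with no test. RefSeq windows were found for 161 of the 234 higher genes, 74 of the 97 lower genes and 5822 of all 7482 genes, where a gene counts if any of its windows matches. The STAT letters TTCNNNGAA were present in 13.7% of the higher genes, 8.11% of the lower genes and 8.23% of all genes. In the genes called higher after matching depth the share was 7.43% of 175, and in those called both ways 11.4% of 70. The forkhead letters TGTTTAC were present in 5.59% of the higher, 4.05% of the lower and 3.25% of all genes, and in 3.43% after matching and 7.14% of the 70 called both ways.

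Among the clusters, cells led by interferon genes (cluster 8, 96 cells) held 19.8% Foxp3+ cells (12.4 to 29.2%), and cells led by cholesterol synthesis genes (cluster 5, 375 cells) 19.5% (15.6 to 23.8%). In cluster 5 Il2ra had its largest ratio, 0.85.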
